A study of Schizosaccharomyces pombe with 6 samples.

Results

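The spliceosome genes described here are 72 of the 2916 features named for *Schizosaccharomyces pombe* genes on the arrays. They were chosen by name, as the genes called *cwf*, *prp*, *sap*, *saf*, *snu* or *usp* with a number (apart from *sap1*), the Sm protein genes, and *cdc5*, *cdc28*, *aar2* and *uap2*. Levels of their mRNAs were measured in total RNA of *rae1-167* cells (972 strain background), in which the gene for the mRNA export factor Rae1 is mutated and the growth is temperature-sensitive. Cells grown in YE4S, a rich medium, at 25°C were compared with cells kept at 36°C for 1 h, with 3 arrays at each temperature and 6 in all. All 6 samples carry the mutation, so the mutation and the shift in temperature cannot be told apart as sources of a change, and wild type arrays were not analysed here. The comparison asks which individual mRNAs differ between 36°C and 25°C in this mutant. A lower share of cells with an mRNA and less of it per cell cannot be told apart in RNA of a whole culture.

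The spliceosome removes introns from pre-mRNA, and many *S. pombe* genes contain introns. It is assembled on each intron from small nuclear ribonucleoproteins (snRNPs), of which U1 binds the start of the intron, U2 binds the branch site, and U4/U6 and U5 join as a preformed tri-snRNP. The Prp19 complex (NTC), named after its ubiquitin ligase, then enters as U1 and U4 leave, and stabilises the active site. ATP-dependent helicases drive the rearrangements, and the Sm ring is the protein core that U1, U2, U4 and U5 share. Several *S. pombe* genes do not bear the name of their counterpart in *Saccharomyces cerevisiae*. Thus *prp2* encodes the large subunit of U2AF, *prp1* the counterpart of budding yeast Prp6, and *cdc28* the counterpart of budding yeast Prp2.

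Each member had 1 probe set, and all 72 were above background on the 3 arrays of at least 1 temperature. Background was taken from the *S. cerevisiae* probe sets as their 90th percentile on each array, which lay between 14 and 21.3. Signals are the deposited intensities on a linear scale, and changes are log2 fold changes of 36°C over 25°C from limma, with p-values adjusted over all 2916 features and a threshold of 0.05. The median *S. pombe* signal was between 1938 and 2615 at 25°C and between 1146 and 1579 at 36°C. The median log2 fold change of all features was -0.66 in the deposited values, -0.08 after quantile normalization, 0.10 after centring every array on its own median and -0.77 after scaling to the spike-in controls. The signal of *rae1* itself was 4298, 4477 and 4717 at 25°C against 1634, 1497 and 1530.3 at 36°C. This checks no label, since all samples carry the allele. For 3 of 7 control genes the ratio of 5′ to 3′ probe sets was lower on every 36°C array than on any 25°C array, with log2 differences down to -1.43, and its part in the results was not tested.

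Most spliceosome genes had lower mRNA levels at 36°C. Of the 72 members, 62 fell and 2 rose, while the other 8 did not pass the test. Those that fell made up 86.1% of the members, where 51.9% of all features fell and 12.1% rose. At least 2-fold decreases were found for 53 members (39.8% of all features) and at least 4-fold decreases for 33 (18.1% of all features). The median log2 fold change of the members was -1.68, with an interquartile range of -2.64 to -0.99. All signals at 36°C were below all those at 25°C for 65 members, against 56.4% of all features, and above them for 2 members, against 15.1% of all features. Within replicates 1, 2 and 3 the median log2 ratio of the members was -1.80, -1.73 and -1.62, and that of all features was -0.67, -0.67 and -0.60. After centring on the array median 48 members were lower and 8 higher, where 34.5% of all features were lower and 39.4% higher. After quantile normalization 45 members were lower and 6 higher, where 36.5% of all features were lower and 27.5% higher. The calls of 17 members as lower were lost after quantile normalization and those of 14 after centring. No such call was lost after scaling to the spike-in controls. That scaling moved the median of all features only from -0.66 to -0.77, a downward shift that could hardly remove a call as lower. The calls of 42 members as lower held under the 3 other scalings and every other alternative run.

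**Figure D1:**
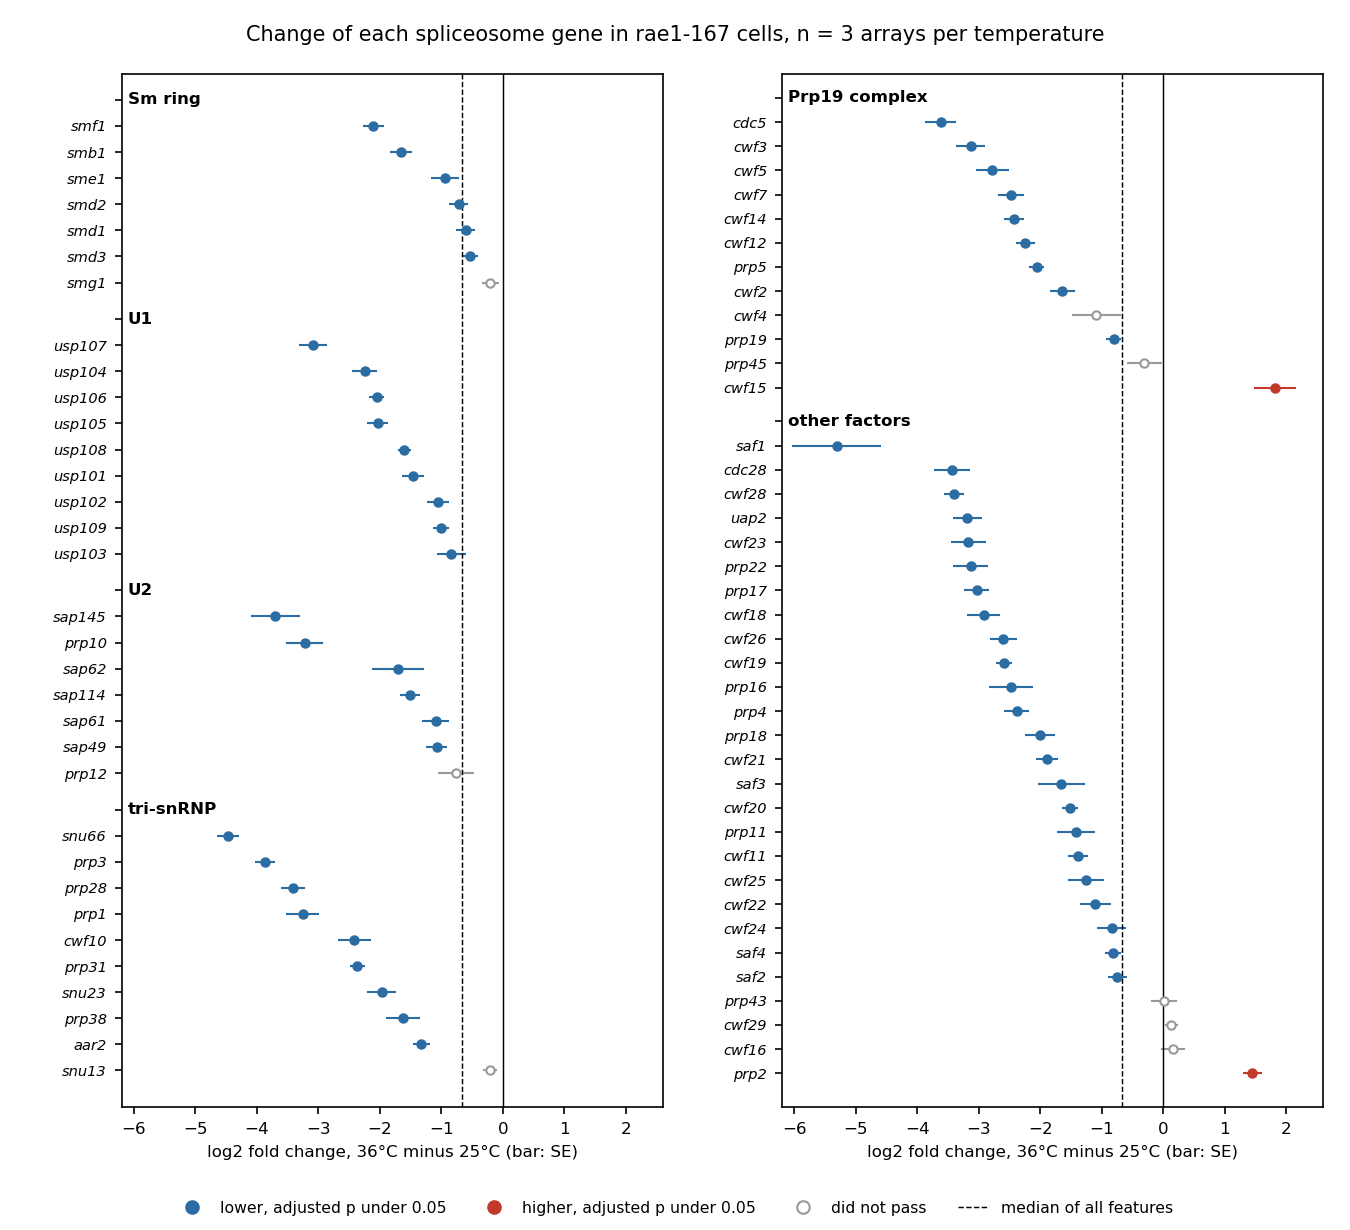
Log2 fold change of each of the 72 members (x axis, 36°C minus 25°C, bar: SE of the limma fit, n = 3 arrays per temperature) by subcomplex. Filled blue points fell, filled red points rose and open points did not pass the test, and the dashed line marks the median of all features, -0.66. The deposited scaling is shown, and the sign of 14 members turns under at least 1 other scaling.

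Of the subcomplexes, the tri-snRNP and the Prp19 complex had the lowest medians and the Sm ring the highest. The median log2 fold change was -2.39 for the 10 tri-snRNP genes, -2.15 for the 12 Prp19 complex genes, -1.60 for the 9 U1 genes, -1.50 for the 7 U2 genes and -0.72 for the 7 Sm ring genes. The 27 other factors had a median of -1.89. The tri-snRNP median was the lowest and the Sm ring median the highest of these in each of the replicates 1, 2 and 3, at -2.47, -2.44 and -2.27 for the tri-snRNP and -0.47, -0.84 and -0.81 for the Sm ring. Both places were kept after quantile normalization, where the medians were -1.38 and -0.32, although U2 then lay close to the Sm ring at -0.34. After centring the Sm ring median was 0.04. The differences between subcomplexes are a description and were not tested. The counts by subcomplex given below for the deposited values stand beside 51.9% of all features that fell and 12.1% that rose.

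**Figure D2:**
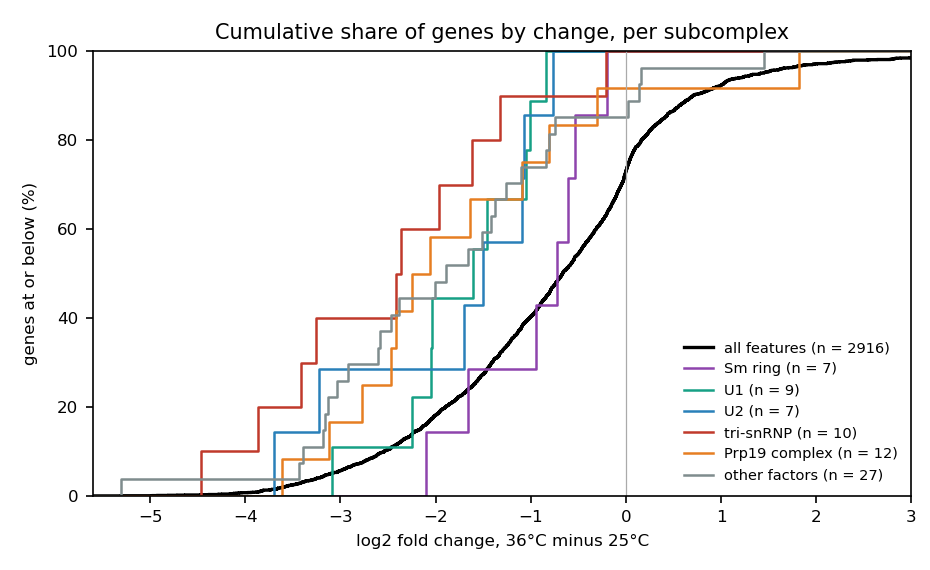
Cumulative share of genes (y axis, %) at or below each log2 fold change (x axis, 36°C minus 25°C) for all 2916 features and for each subcomplex. The tri-snRNP line crosses 50% near its median of -2.39, and the Sm ring line ends below 0 with a median of -0.72 (0.04 after centring on the array median).

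In the tri-snRNP, 9 of 10 genes fell, 6 of them at least 4-fold, and 1 did not pass the test. The largest decrease was that of *snu66* (SPAC167.03c), which encodes a tri-snRNP protein bound by the ubiquitin-like protein Hub1. Its signal was 830.5, 1108 and 1176 at 25°C against 40.8, 53.0 and 46.3 at 36°C. The groups did not overlap, and the log2 fold change was -4.47 (± 0.18 SE in limma, adjusted p = 1.7e-05). The signal of *prp3* (SPAC29E6.02), a U4/U6 protein gene, was 724, 837 and 1039 at 25°C against 53.9, 58.9 and 64.0 at 36°C. Every 36°C array was thus more than 10-fold below every 25°C array, with a log2 fold change of -3.87 (± 0.16 SE in limma, adjusted p = 1.9e-05). The helicase gene *prp28* (SPCC63.11), whose product displaces U1 from the start of the intron, had signals of 903, 1231 and 1350.3 at 25°C against 94.2, 108 and 122 at 36°C. It fell by a log2 fold change of -3.41 (± 0.19 SE in limma, adjusted p = 3.3e-05).

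Other tri-snRNP genes that fell were *prp1* (-3.26), *cwf10* (-2.42), which encodes the GTPase of U5, *prp31* (-2.37), which binds U4, *snu23* (-1.97), *prp38* (-1.62, but -0.49 and not passed after quantile normalization) and *aar2* (-1.32). Aar2 acts in U5 assembly and is absent from the mature particle, but its gene was counted with the tri-snRNP here. The gene that did not pass was *snu13* (SPAC607.03c), which encodes a protein of U4 that is also part of box C/D snoRNPs. Its signal was 11862, 11013 and 10875 at 25°C against 10456, 9263 and 9548 at 36°C. The groups did not overlap, but the log2 fold change was -0.21 (± 0.11 SE in limma, adjusted p = 0.14). With a variance trend and robust moderation in limma it passed as lower at an adjusted p of 0.024, and after centring on the array median it was 0.55 and called higher.

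Among the Prp19 complex genes, 9 of 12 fell and 1 rose, while 2 did not pass. Of the 7 genes of the core complex 5 fell and 1 rose, and of the 5 of the related group 4 fell. The signal of *cdc5* (SPAC644.12), a Myb-related protein at the core of the complex, was 605, 929.9 and 1083 at 25°C against 69.6, 58.9 and 80.4 at 36°C. Its log2 fold change was -3.62 (± 0.25 SE in limma, adjusted p = 5.8e-05). The signal of *cwf3* (SPBC211.02c), the counterpart of *S. cerevisiae* Syf1, was 1149, 1562 and 1733 at 25°C against 127, 186 and 198 at 36°C, which gave a log2 fold change of -3.13 (± 0.24 SE in limma, adjusted p = 8.3e-05). That of *cwf5* (SPCC550.02c), the counterpart of Ecm2, was 539.9, 632 and 698 at 25°C against 64.7, 128 and 89.9 at 36°C, which gave a log2 fold change of -2.77 (± 0.26 SE in limma, adjusted p = 0.00020). In all of these the temperatures were well apart.

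A smaller decrease was found for *prp19* (SPAC29A4.08c), the ubiquitin ligase gene after which the complex is named. Its signal was 4740.1, 5463 and 5824 at 25°C against 2849, 3048 and 3252 at 36°C, which gave a log2 fold change of -0.81 (± 0.13 SE in limma, adjusted p = 0.0017). After centring it was -0.04 and no longer passed. The other genes of the group that fell were *cwf7* (-2.47), *cwf14* (-2.42), *cwf12* (-2.24), *prp5* (-2.06) and *cwf2* (-1.64). The largest decrease among these partners was that of *cdc5*, at 12.3-fold, and the smallest was that of *prp19*. These genes were not tested against each other.

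In contrast, *cwf15* (SPBC337.06c), which encodes the counterpart of Cwc15 in the same complex, rose. Its signal was 418, 503 and 525 at 25°C against 988, 2188 and 2231 at 36°C. The 36°C signal of replicate 1 was well below the other 2, and it still lay above all 25°C arrays. The log2 fold change was 1.82 (± 0.34 SE in limma, adjusted p = 0.0037), and *cwf15* was also higher after quantile normalization (2.81) and after centring (2.58). The genes that did not pass were *cwf4* and *prp45*. The signal of *cwf4* (SPBC31F10.11c), the counterpart of Syf3, was 1000.0, 1248 and 1545 at 25°C against 327, 675 and 913 at 36°C, and the groups did not overlap. Its log2 fold change was -1.09 (± 0.40 SE in limma, adjusted p = 0.051), and with the replicate number as a block it passed at an adjusted p of 0.0053 from limma. After quantile normalization it was 0.04. The signal of *prp45* (SPCC188.11), the SKIP protein gene, was 1369, 1744 and 1857 at 25°C against 877, 1541 and 1741 at 36°C, with overlapping groups. Its log2 fold change was -0.30 (± 0.28 SE in limma, adjusted p = 0.39), against 0.54 after quantile normalization and 0.46 after centring, where it was called higher.

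**Figure D3:**
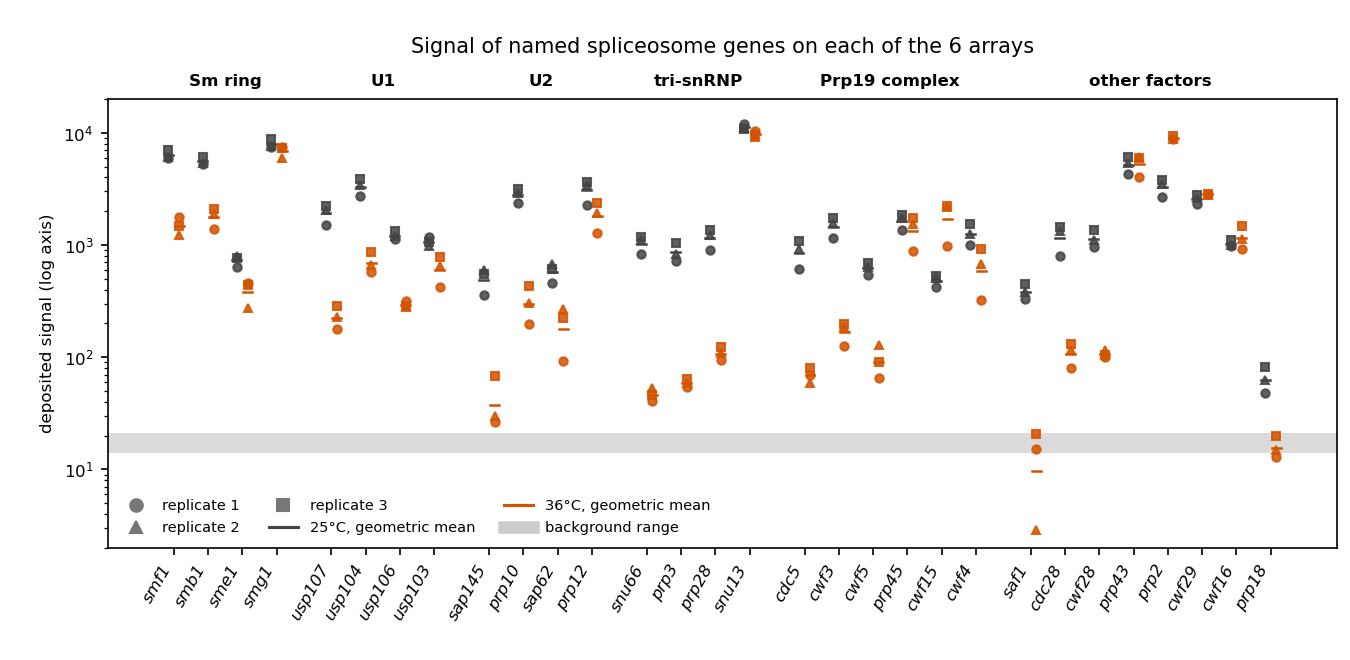
Deposited signal (y axis, log scale) on each of the 6 arrays for the 30 members whose values are given per array by rule, at 25°C (dark grey) and 36°C (orange), with 1 symbol per replicate number and a bar at the geometric mean. The light grey band is the range of the background over the arrays, between 14 and 21.3. Only *cwf15* and *prp2* have all 36°C signals above all 25°C signals.

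All 9 U1 genes fell, by log2 fold changes between -3.09 and -0.83. The largest decrease was that of *usp107* (SPBC839.10), with signals of 1521, 2064 and 2247 at 25°C against 179, 227 and 283 at 36°C and a log2 fold change of -3.09 (± 0.23 SE in limma, adjusted p = 7.6e-05). The signal of *usp104* (SPAC4D7.13, now named *prp40*), whose *S. cerevisiae* counterpart bridges both ends of the intron, was 2739, 3395 and 3892 at 25°C against 579.7, 669 and 874 at 36°C, which gave a log2 fold change of -2.25 (± 0.21 SE in limma, adjusted p = 0.00017). That of *usp106* (SPCC16A11.13, now named *luc7*) was 1119.9, 1190.4 and 1339 at 25°C against 315, 279 and 286 at 36°C, which gave a log2 fold change of -2.05 (± 0.12 SE in limma, adjusted p = 3.6e-05). The temperatures did not overlap for any of these 3 genes, with decreases of 8.50-fold, 4.74-fold and 4.14-fold. Less pronounced changes were found for the genes of the conserved core proteins of U1, *usp101* (-1.46), *usp102* (-1.05) and *usp103* (-0.83), than for *usp105* (-2.04, now *prp39*) and *usp108* (-1.60), whereas *usp109* (-1.01) was near the core genes. After centring *usp102* (-0.29) and *usp109* (-0.25) did not pass, and *usp102* (-0.39) did not after quantile normalization either. The difference between these U1 genes was not tested.

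The smallest change in U1 was that of *usp103* (SPBP35G2.09), the C protein of U1, which stabilises its pairing with the start of the intron. Its signal was 1169, 974 and 1064 at 25°C against 422, 649 and 778 at 36°C, and the groups did not overlap. The log2 fold change was -0.83 (± 0.24 SE in limma, adjusted p = 0.022), but 0.36 after quantile normalization, and the adjusted p was 0.062 from limma without replicate 1 at 25°C and 0.065 without replicate 3 at 25°C. After quantile normalization 7 U1 genes were lower, where 36.5% of all features were lower and 27.5% higher. After centring 6 U1 genes were lower, where 34.5% of all features were lower and 39.4% higher. No U1 gene was higher by limma in either case.

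Of the 7 U2 genes among the members, 6 fell and 1 did not pass the test. They encode subunits of SF3a and SF3b, the particles that anchor U2 at the branch site, and changes differed widely within SF3b. The signal of *sap145* (SPAC22F8.10c), an SF3b subunit, was 358, 593 and 547 at 25°C against 26.3, 29.9 and 67.7 at 36°C, which gave a log2 fold change of -3.70 (± 0.40 SE in limma, adjusted p = 0.00035). All 36°C signals were above background, though replicates 1 and 2 only slightly. The signal of *prp10* (SPAC27F1.09c), the large SF3b subunit that clamps the branch site helix, was 2378, 2876 and 3136 at 25°C against 199, 305 and 435 at 36°C, which gave a log2 fold change of -3.22 (± 0.30 SE in limma, adjusted p = 0.00017). In contrast, that of *prp12* (SPAPJ698.03c), another large SF3b subunit, was 2291, 3444 and 3639 at 25°C against 1266, 1944 and 2382 at 36°C. Its groups overlapped, since the highest 36°C signal lay above the lowest 25°C signal. The log2 fold change was -0.76 (± 0.29 SE in limma, adjusted p = 0.059), and it passed with the replicate number as a block at an adjusted p of 0.0016 from limma, all 3 replicates having a lower signal at 36°C. The fourth SF3b gene among the members, *sap49*, fell with a log2 fold change of -1.08, and did not pass after centring (-0.31). Outside the naming rule, and so not counted here, the SF3b gene *ini1* rose (0.55). The U2 genes *lea1* (0.30) and *msl1* (-0.13, close to background), also outside the rule, did not pass.

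The SF3a genes fell by more similar amounts, with log2 fold changes of -1.70 for *sap62*, -1.50 for *sap114* and -1.09 for *sap61* (0.21 after quantile normalization and -0.33 after centring, passing in neither). The signal of *sap62* (SPBC21C3.05) was 454, 684 and 616 at 25°C against 92.9, 268 and 222 at 36°C. The 36°C signal of replicate 1 was the lowest, and the adjusted p of *sap62* was 0.012 from limma. The call of *sap62* was lost after quantile normalization (-0.33).

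Of the 7 Sm ring genes, 6 fell in the deposited values and 1 did not pass. Only 2 were lower after quantile normalization or centring, and 1 was higher after centring. Of all features, 36.5% were lower after quantile normalization and 34.5% after centring, and 39.4% were higher after centring. The 2 Sm ring genes that fell under each scaling were *smf1* and *smb1*. The signal of *smf1* (SPBC3E7.14), Sm protein F, was 6012, 6099.6 and 6974 at 25°C against 1784, 1231 and 1462 at 36°C, which gave a log2 fold change of -2.11 (± 0.17 SE in limma, adjusted p = 9.5e-05). The signal of *smb1* (SPAC26A3.08), Sm protein B, was 5292, 5383 and 6083 at 25°C against 1384, 1889 and 2099 at 36°C, which gave a log2 fold change of -1.66 (± 0.18 SE in limma, adjusted p = 0.00035). That of *sme1* (SPBC11G11.06c), Sm protein E, was 637, 800.1 and 769.6 at 25°C against 460.2, 274 and 439 at 36°C, which gave a log2 fold change of -0.94 (± 0.23 SE in limma, adjusted p = 0.012), against 0.43 after quantile normalization. For all 3 genes the groups did not overlap.

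The genes of the Sm D proteins had changes near the median of all features, with log2 fold changes of -0.61 for *smd1*, -0.72 for *smd2* and -0.53 for *smd3*, which turned to 0.16, 0.04 and 0.23 after centring. The call of *smd3* was lost without replicate 3 at 25°C. The signal of *smg1* (SPBC4B4.05), Sm protein G, was 7543, 7578 and 8718 at 25°C against 7489, 5995 and 7294 at 36°C. The lowest 25°C signal exceeded the highest 36°C signal only slightly, and the log2 fold change was -0.20 (± 0.14 SE in limma, adjusted p = 0.24). After centring it was 0.56 and called higher. Although the proteins occur together in 1 ring, the deposited signals thus ranged from a 4.30-fold decrease for *smf1* to a change for *smg1* that did not pass.

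**Figure D4:**
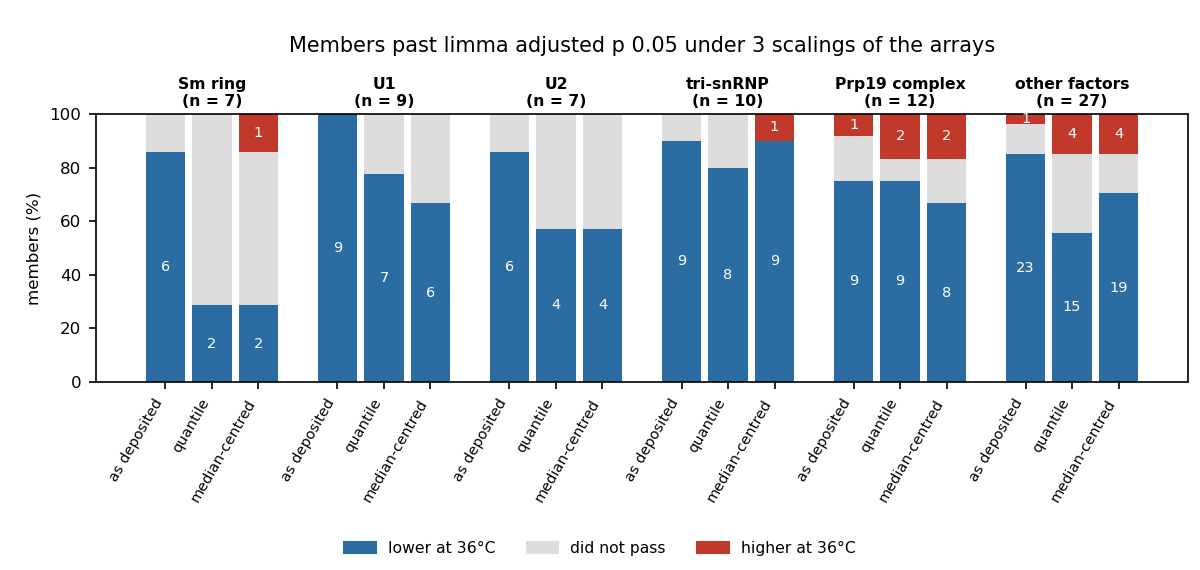
Share of members (y axis, %) of each subcomplex that fell (blue), rose (red) or did not pass limma's test at an adjusted p of 0.05 (grey), with counts in the bars, for the deposited signals, after quantile normalization and after median centring. The count of lower tri-snRNP genes was 9, 8 and 9, while that of lower Sm ring genes was 6, 2 and 2, with 1 Sm ring gene higher after centring. Of all features 51.9%, 36.5% and 34.5% were lower and 12.1%, 27.5% and 39.4% higher.

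Among the ATP-dependent helicases, 5 of 6 genes fell, in groups that did not overlap, and 1 did not pass the test. Of all features 51.9% fell, and 56.4% had all 36°C signals below all those at 25°C. The signal of *cdc28* (SPBC19C2.01), the helicase that triggers catalytic activation, was 796, 1326 and 1455 at 25°C against 80.1, 115 and 131 at 36°C, which gave a log2 fold change of -3.44 (± 0.29 SE in limma, adjusted p = 0.00013). *prp28*, given above, acts before it in the cycle, and *prp22* (-3.13), which releases the spliced mRNA, and *prp16* (-2.47), which remodels the spliceosome between the catalytic steps, act after it. A smaller decrease was measured for *prp11* (-1.42, but -0.02 and not passed after quantile normalization), the counterpart of the *S. cerevisiae* helicase Prp5 that acts when U2 joins. The helicase gene *prp43* (SPBC16H5.10c) had signals of 4316, 5402 and 6035 at 25°C against 4070.4, 6072 and 5950.0 at 36°C. Its groups overlapped almost fully, with a log2 fold change of 0.02 (± 0.21 SE in limma, adjusted p = 0.94). After centring it was 0.78 and called higher. Prp43 takes apart the spent spliceosome and also acts in ribosome biogenesis.

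A further gene that fell was *saf1* (SPCC663.11), named as a splicing-associated factor. Its signal was 328, 379.8 and 450.2 at 25°C against 15.2, 2.9 and 20.6 at 36°C, and 2 of the 3 signals at 36°C were above background. The log2 fold change was -5.30 (± 0.72 SE in limma, adjusted p = 0.00095), the lowest value of any member. It was -4.44 without replicate 2 at 36°C and -3.23 with 32 added to each signal, and *snu66* was then lower, at -4.56 and -3.75. The other *saf* genes fell too, with log2 fold changes of -1.65 for *saf3*, -0.81 for *saf4* and -0.74 for *saf2*. After quantile normalization none of these 3 calls held, with -0.34 for *saf3*, -0.16 for *saf4* and 0.38 for *saf2*, which was instead called higher, and after centring *saf4* (-0.05) and *saf2* (0.02) did not pass. Another gene close to background was *prp18* (SPCC126.14), a factor of the second catalytic step. Its signal was 48.4, 62.7 and 81.9 at 25°C against 13, 15.0 and 19.7 at 36°C, and only 1 of the 36°C signals was above background. Its log2 fold change was -2.01 (± 0.25 SE in limma, adjusted p = 0.00059), and -0.996 with 32 added to each signal.

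The signal of *cwf28* (SPBC3B9.02c) was 955, 1098 and 1364 at 25°C against 101, 116 and 104 at 36°C, which gave a log2 fold change of -3.40 (± 0.16 SE in limma, adjusted p = 2.2e-05). Among the factors of the catalytic steps, *prp17* (-3.03), *cwf25* (-1.26, but 0.04 after quantile normalization), *cwf22* (-1.10, but -0.32 after quantile normalization) and *cwf24* (-0.84, but 0.56 after quantile normalization) fell. None of these 3 *cwf* genes passed after quantile normalization, and *cwf22* (-0.34) and *cwf24* (-0.08) did not pass after centring. The call of *cwf24* was also lost in each of 4 fits with 1 array left out. By contrast, *cwf16* (SPAC9.13c), the counterpart of the first-step factor Yju2, did not pass. Its signal was 975, 995 and 1117 at 25°C against 918, 1126 and 1465 at 36°C, with overlapping groups and a log2 fold change of 0.16 (± 0.19 SE in limma, adjusted p = 0.50). It was called higher after quantile normalization (1.19) and centring (0.92).

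The genes of the RES complex, which helps to retain unspliced pre-mRNA in the nucleus of *S. cerevisiae*, differed from each other. *cwf26*, the counterpart of Bud13, fell with a log2 fold change of -2.60, while *cwf29* (SPBC887.05c), the counterpart of Ist3, did not pass. The signal of *cwf29* was 2339, 2616 and 2787 at 25°C against 2839, 2786 and 2860.5 at 36°C, which gave a log2 fold change of 0.14 (± 0.11 SE in limma, adjusted p = 0.33). The lowest 36°C signal and the highest 25°C signal were nearly equal, and *cwf29* was called higher after quantile normalization (0.66) and after centring (0.90).

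The gene of the U2AF large subunit, *prp2* (SPBC146.07), which recognises the end of the intron, was the other gene that rose. Its signal was 2686, 3485 and 3822 at 25°C against 8753, 8831 and 9430.1 at 36°C. All 36°C signals were more than 2-fold above all 25°C signals. The log2 fold change was 1.45 (± 0.16 SE in limma, adjusted p = 0.00035), and it was higher under every scaling run. The U2-associated factor gene *uap2*, the counterpart of Cus2, fell with a log2 fold change of -3.18. Its 36°C signals of 24.5, 33.6 and 33.1 were above background but close to it. *cwf23* (-3.16), with a DnaJ domain, also fell to signals near background, 38.2, 52.1 and 27.7 at 36°C. The remaining factors that fell were *cwf18* (-2.92), *cwf19* (-2.59), *cwf21* (-1.89), *cwf20* (-1.51, but -0.12 and not passed after quantile normalization), *cwf11* (-1.38), the counterpart of human Aquarius, and the protein kinase gene *prp4* (-2.38). Prp4 phosphorylates Prp1 in *S. pombe*, whose own gene changed by -3.26.

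Of 15 measured splicing genes outside the naming rule, 10 fell and 1 rose, while 4 did not pass, where 51.9% of all features fell and 12.1% rose. For a list of this size the share that fell, 66.7%, is not far above that of all features, and the difference was not tested. At least 2-fold decreases were found for 9 of the 15, against 39.8% of all features. The median log2 fold change of the 15 was -1.48, against -0.66 for all features. Genes of the U5 proteins that complete the tri-snRNP fell, with log2 fold changes of -2.14 for *spp42*, the counterpart of Prp8 and scaffold of the active site, -1.83 for the helicase gene *brr2* and -1.48 for *dim1*. The signal of *spp42* was 3079, 4778 and 5029.8 at 25°C against 550.2, 1118 and 1394 at 36°C, while *brr2* had 2764, 3823 and 4119 at the lower and 459, 1346 and 1577 at the higher temperature. In both, the 36°C array of replicate 1 was the lowest. The genes of the second-step factor Slu7, *slu7* (-3.67), of the SR protein kinase, *dsk1* (-2.38), of the Snu66 partner Hub1, *hub1* (-2.28), and of the branch point binding protein, *bpb1* (-1.61), fell as well. The call of *bpb1* was lost after quantile normalization (-0.42). Decreases were also found for the debranching enzyme gene *dbr1* (-1.62), *syf2* (-1.39) and the SR protein gene *srp1* (-0.65, but 0.11 after centring). After quantile normalization *dbr1* (-0.37) did not pass, and after centring *syf2* (-0.63) did not. The signal of *syf2* was 39.1, 81.1 and 66 at 25°C against 13.4, 31.8 and 27.4 at 36°C. Only 2 of its 3 signals at 36°C were above background.

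The gene that rose was *ini1*, an SF3b subunit, with signals of 5315, 4607 and 5602 at 25°C against 8850.0, 6723 and 7252 at 36°C and a log2 fold change of 0.55 (± 0.15 SE in limma, adjusted p = 0.018). It was not called higher after scaling to the spike-in controls or without replicate 2 at 25°C. The genes that did not pass were *lea1* (0.30), *msl1* (-0.13), *srp2* (-0.27) and *sde2* (0.29), and *lea1* and *msl1* encode a pair of U2 proteins that bind each other. The signal of *msl1* was 29.6, 22.2 and 39.8 at 25°C against 26.2, 30.5 and 25.1 at 36°C. These values were above background but close to it, so a change of *msl1* could hardly be seen. After centring 8 of these 15 genes were lower and 5 higher, where 34.5% of all features were lower and 39.4% higher. Of the 7 genes of the Lsm ring of U6, 5 fell, 1 rose and 1 did not pass, and their median of -0.85 was near the -0.66 of all features, of which 51.9% fell and 12.1% rose. These 7 had log2 fold changes of -2.11 for *lsm4*, the largest decrease, and 0.35 for *lsm2*, the gene that rose. After centring 1 Lsm gene was lower and 1 higher, where 34.5% of all features were lower and 39.4% higher. After scaling to the spike-in controls no Lsm gene was higher, against 10.8% of all features. In 3 of the 6 fits with 1 array left out none was higher either, against 9.43% to 9.88% of all features.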

How the data were processed

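Total RNA of 3 cultures per temperature, which the study describes as independent experiments, was hybridised to GeneChip Yeast Genome 2.0 arrays read on a GeneChip Scanner 3000. The deposited intensities are linear signals, 1 per probe set, that the authors computed with GCOS v1.4 and globally scaled. The scaling target is not given in the sources used here. Because so many features were lower at 36°C, the sizes of decreases and many of the calls depend on this scaling. Of 10928 probe sets, 2917 were annotated with 1 *S. pombe* gene and 19 with several. These 2936 gave 2916 features, of which 2898 were single genes, with probe sets of the same feature averaged. Values under 1 were set to 1 (6 values), and log2 signals were fitted with limma 3.58.1 in R 4.3.3, without covariates, with Benjamini-Hochberg adjustment and two-sided tests. The fit was tested on simulated data.

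Deviations of arrays with the same replicate number correlated over 2859 features at 0.54, 0.45 and 0.43. The numbers were therefore treated as pairs, in an alternative to the unblocked fit only. However, replicate 2 at 25°C correlated slightly more closely with replicate 3 at 36°C (0.48) than with replicate 2 at 36°C (0.45). Values were printed for the 3 largest changes that passed and the smallest change of each subcomplex, for all members that rose or did not pass, and for those below background on some array. *prp19* and values of genes outside the naming rule were added after their values were seen. The members, their subcomplexes and the lists were chosen with earlier results of these data known, and groupings within a subcomplex were formed after values were seen. Current names came from the RefSeq gene table of ASM294v3. Intron number, gene length and sequences were not analysed here.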

Additional observations from a re-analysis of the deposited data

How the results depend on the processing

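The results depended mainly on the scaling between arrays. The median log2 fold change of the members was -1.68 in the deposited values, -0.71 after quantile normalization, -0.92 after centring on the array median, -1.79 after scaling to the spike-in controls and -1.57 with 32 added to each signal. It ranged from -1.89 to -1.56 with 1 array left out. The count of members that were higher was 2, against 6 after quantile normalization and 8 after centring. The count of lower Sm ring genes went from 6 to 2 under either of these, and that of the other factors from 23 to 15 after quantile normalization. Of all features 12.1% were higher in the deposited values, 27.5% after quantile normalization, 39.4% after centring and 10.8% after spike-in scaling. The shares that were lower were 51.9%, 36.5%, 34.5% and 56%. Of the 22 splicing genes outside the naming rule, Lsm genes included, 15 were lower and 2 higher, against 9 lower after centring and 4, 6 and 0 higher after quantile normalization, centring and spike-in scaling, and 0 to 2 higher with 1 array left out. The sign turned to 0.43 for *sme1*, 0.36 for *usp103* and 0.54 for *prp45* after quantile normalization, and to 0.56 for *smg1*, 0.55 for *snu13* and 0.46 for *prp45* after centring. The cause of these changes was not tested. With 1 array left out, 59 to 63 members were lower and 2 higher. Of all features 44.8% to 53.1% were then lower and 9.43% to 15.6% higher. With the replicate number as a block 64 members were lower and 2 higher, where 59% of all features were lower and 16% higher. *cwf4* and *prp12* were the only calls gained with the block. Filters on dim or less specific probe sets, a wider family of tests and another variance model left the members' median as it was. They gave 62 to 65 lower members, where 51.9% to 54.4% of all features were lower. *snu13* (adjusted p = 0.024 by limma), *cwf4* and *prp12* were gained with the other variance model.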

Other observations

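Members made up 2 of the 10, 8 of the 100 and 31 of the 500 largest decreases among the 2916 features, of which they were 2.47%. The 2 among the 10 were *snu66* and *saf1*, and the signal of *saf1* was below background on 1 array at 36°C. By chromosome, 22 of 25 members on chromosome I, 29 of 35 on chromosome II and 11 of 12 on chromosome III fell. Of all features 51.9% fell, and their shares by chromosome were not analysed here. Neighbouring members were *cwf22* and *cwf24* on chromosome II, with log2 fold changes of -1.10 and -0.84, and *prp11* and *cwf23* on chromosome III, with -1.42 and -3.16. Across the 72 members, Spearman's rho between the log2 signal at 25°C and the log2 fold change was 0.34, against 0.05 across all features. Genes are not independent replicates, and the 25°C signal enters both measures.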
